A study of Mus musculus with 7 samples.

Results

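The genes described here were 44 genes of the presynaptic terminal that build synaptic vesicles or carry out and regulate their release. They were taken by gene symbol, with no threshold on their values, and made up 44 of the 55416 gene identifiers counted in mouse hippocampus. All 44 passed the filter on low counts, by which 13152 genes were tested. Otof and Syt9 passed it only through libraries of the ONX-0914 group described below. RNA-seq was performed on 7 hippocampal libraries from male age-matched mice of the outbred CD1 stock, which carried no stated genetic change. Control (untreated) mice gave 3 libraries (replicates 1, 2 and 3). The DMSO group held 2 libraries (replicates 2 and 3), and the ONX-0914 group also held 2 (replicates 1 and 2). The injected agent ONX-0914 inhibits the immunoproteasome, the proteasome form with inducible catalytic subunits. It was given intraperitoneally at 10 mg/kg on 2 days of each week for 2 months, and the vehicle DMSO was given on the same schedule. The age of the mice and whether each library came from 1 animal are not given in the sources used here, so that p-values measure the spread between these libraries.

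At a presynaptic terminal, vesicles filled with transmitter are tethered by synapsins, docked at the active zone by Rab3 and RIM proteins, and primed by Munc13 proteins, which help SNARE proteins of the vesicle and the plasma membrane to assemble. Complexins hold the assembled SNARE complex, synaptotagmins sense the incoming calcium and trigger fusion, and the membrane is retrieved by dynamin and its partners. The hippocampus holds many glutamatergic terminals and a smaller number of GABAergic ones, and brain regions differ in which paralogs of these proteins they use. In RNA from whole tissue, fewer cells of a type and less RNA per cell cannot be told apart.

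The libraries were shallow, with total gene counts between 2842675 and 3877006, except for ONX-0914 replicate 2 with 13782270. Of the 44 genes, 35 had at least 100 counts in every library, and counts ran from 5 to 21546. Both ONX-0914 libraries stood apart from the others, with some shifts in common and some in 1 library. In ONX-0914 replicate 1, all 14 thalamus and midbrain markers and all 12 striatum markers lay above every control library. Their summed levels in CPM (counts relative to the library size, scaled by the trimmed mean of M-values, TMM) were 1489 and 1406, against 177 to 206 and 241 to 273 in control. In the same library 7 of 8 dentate gyrus markers and 6 of 7 CA1 markers lay below every control library, with summed CPM of 189 and 212 against 485 to 621 and 577 to 649. The other CA1 marker lay above. In ONX-0914 replicate 2, 6 of 8 dentate gyrus markers lay below every control library and 2 above, with a sum of 485 at the lower end of control. Of 7 CA1 markers in replicate 2, 2 lay below and 4 above, with a sum of 687 CPM. The 6 blood markers summed to 97.4 CPM in ONX-0914 replicate 1 and 839 in replicate 2, against 30.0 to 40.1 in control, with 5 of 6 above every control library in both. All 7 endothelium markers lay above every control library in both, with summed CPM of 305 and 294 against 169 to 178. In replicate 2, 7 of 10 pan-neuronal markers lay below every control library and 3 above, with a summed CPM of 5164 against 7564 to 8334. In replicate 1, 2 of them lay below and 4 above, with a sum of 8752. Of 8 astrocyte markers, 6 lay below and 1 above in replicate 2, with 2589 CPM against 3441 to 3999. In replicate 1 it was 1 below and 6 above, with 4022 CPM. The mitochondrial share of counts was 3.71% in replicate 2 and 0.818% to 1.59% in the other 6 libraries. DMSO libraries gave 139.6 to 177 CPM for thalamus and midbrain, 433 to 552 for dentate gyrus, 35.3 to 46.4 for blood and 7557 to 8061 for the pan-neuronal list. Oligodendrocyte markers summed to 7905 to 9332 CPM in DMSO, against 5068 to 7626 in control. In ONX-0914 replicates 1 and 2 they summed to 9981 and 4511. Microglia markers summed to 347 to 403 in DMSO, 300 to 327 in control, and 365 and 513 in ONX-0914. The interneuron list gave 817 to 893 in DMSO, against 935 to 960 in control. The thalamus and midbrain markers Pax7 and Irx2 had no counts in control. The markers of CA1, CA3 and dentate gyrus were detected in all 7 libraries.

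Untreated hippocampus contained the 44 transcripts at very different levels. Compared per length, as CPM per kb of exon, the complexin genes stood at the top, with 610.2 ± 44 for Cplx1 and 504 ± 47 for Cplx2 (mean ± SD, n = 3). Syt11, Vamp2, Syp, Snap25, Dnm1 and Syt1 followed with means of 359 to 203 CPM per kb. The lowest were Syt9, Syn3 and Otof with 0.590, 0.351 and 0.264 CPM per kb. In the order of control means, 29 of the 43 pairs of neighbouring genes overlapped in their control values. Cplx1 and Cplx2 did not overlap, nor did Cplx2 and Syt11, whereas each gene from Syt11 to Snap25 overlapped with the next. Dnm1 and Syt1 did not overlap.

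**Figure D1:**
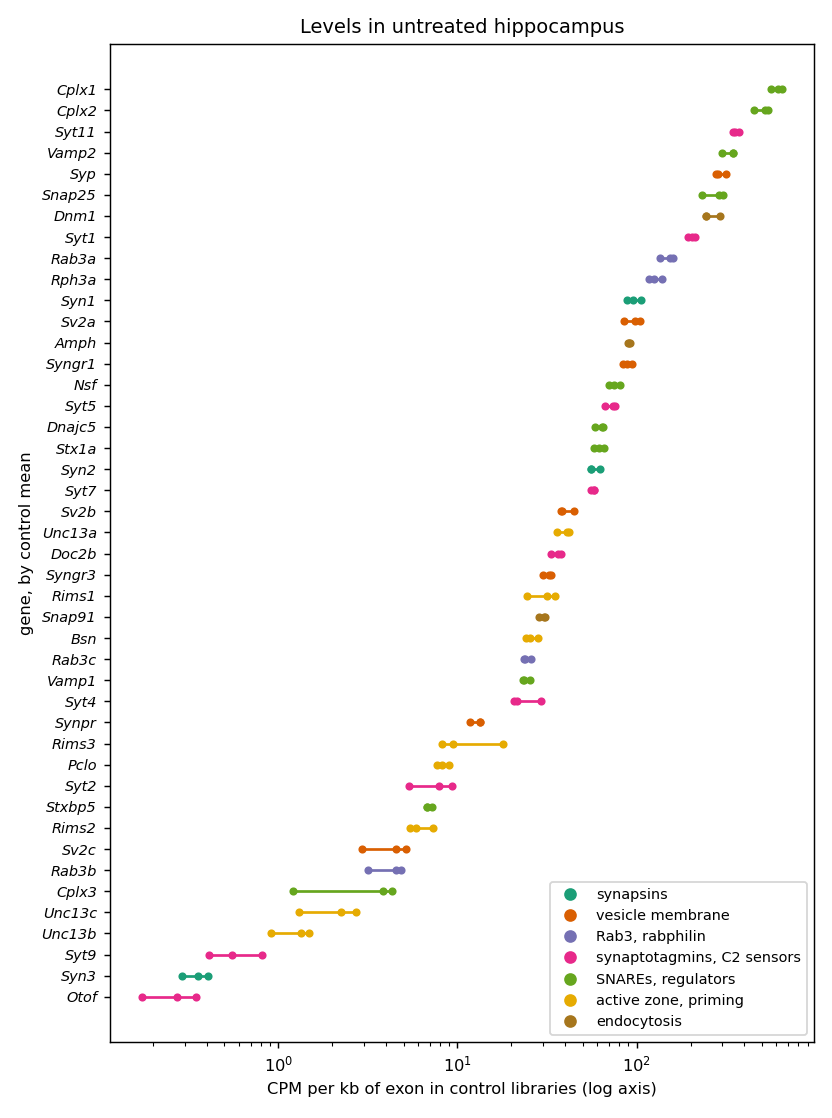
Levels of the 44 genes in the 3 control libraries, in CPM per kb of exon on a log axis, ordered by the control mean and coloured by role (points are libraries, lines span their range). Cplx1 and Cplx2 lead with means of 610.2 and 504, and Otof is lowest with 0.264.

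No gene of the 44 passed the test in any comparison. In ONX-0914-treated against control hippocampus, edgeR's quasi-likelihood test at FDR below 0.05 called 0 of the 44, while it called 0.114% of all genes tested. It called 0 of the 44 in DMSO against control (0.0152% of all genes) and 0 of the 44 in ONX-0914 against DMSO (0.0456% of all genes). At an unadjusted p below 0.05, ONX-0914 against control gave 10 of the 44 (22.7%), while 18.6% of all genes passed this threshold. Of the 10, 6 were higher (13.6% of the 44, all genes 10.6%) and 4 were lower (9.09%, all genes 8.04%). The higher genes included Otof and Syt9, which passed the filter only through the ONX-0914 libraries. DMSO against control gave 1 (2.27%, all genes 2.65%) and ONX-0914 against DMSO gave 12 (27.3%, all genes 14.7%). Otof and Syt9 were also among these 12. DESeq2 called 7 of the 44 in ONX-0914 against control (2.65% of the genes it tested), namely Otof, Unc13c, Rims3 and Syt9 as higher and Cplx2, Amph and Unc13a as lower. It called 0 in DMSO against control (0.0186%) and 4 in ONX-0914 against DMSO (1.55%), where Otof, Unc13c and Rims3 were higher and Cplx2 was lower. With no filter on low counts, edgeR called 5 of the 44 in ONX-0914 against control (2.15% of all genes) and 4 in ONX-0914 against DMSO (1.11%). With ONX-0914 replicate 2 as the lone treated library, 23 of the 44 were called against control (51.2% of all genes) and 21 against DMSO (46.0%). With replicate 1 as the lone one, it was 26 (19.0%) and 21 (17%). A lone library is assumed to vary like the other groups, and in DMSO against control these fits called 1 of the 44, Unc13a (0.955% and 1.07% of all genes). limma voom called 0 of the 44 in each comparison. The ONX-0914 group consists of 2 libraries that differ from each other, so the values of each library are given first below. Both comparisons with control share the control libraries.

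The median Log2FC (log2 fold change) of the 44 genes in ONX-0914 against control was -0.06, beside 0.05 over all genes tested, with 21 genes above 0 (47.7%, all genes 53.8%) and 23 below (52.3%, all genes 46.2%). With total counts in place of TMM, the median moved to 0.08 and that of all genes to 0.19, with 27 above 0 and 17 below. The median of the 44 genes was below that of all genes with either scaling. In DMSO against control the median was -0.07 beside -0.003 over all genes, and in ONX-0914 against DMSO it was 0.08 beside 0.05. The summed CPM of the 44 genes was 20980, 20866 and 22689 in control, 21440 and 19195 in DMSO and 18648 and 16944 in ONX-0914 replicates 1 and 2.

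Set against the control libraries, the genes fell into 4 patterns under ONX-0914. In 11 genes (25%) both treated libraries were under the whole control range, namely Syp, Synpr, Syt1, Syt5, Snap25, Vamp2, Cplx2, Unc13a, Rims1, Amph and Dnm1, and 16.3% of all genes did so. In 7 genes (15.9%) both lay above, namely Syngr3, Sv2c, Syt9, Otof, Unc13c, Rims2 and Rims3, with 16.9% among all genes. In 12 genes (27.3%) the ONX-0914 libraries lay on opposite sides of all control libraries, with 23.4% among all genes. The other 14 genes had at least 1 ONX-0914 library within the control range, namely Syngr1, Rab3a, Rab3b, Rph3a, Syt2, Syt4, Syt11, Doc2b, Stx1a, Cplx3, Dnajc5, Unc13b, Bsn and Pclo. The gap between the ONX-0914 libraries had a median of 0.56 on the log2 scale over the 44 genes and 0.58 over all genes, whereas the gap between the DMSO libraries had a median of 0.18 and 0.22.

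**Figure D2:**
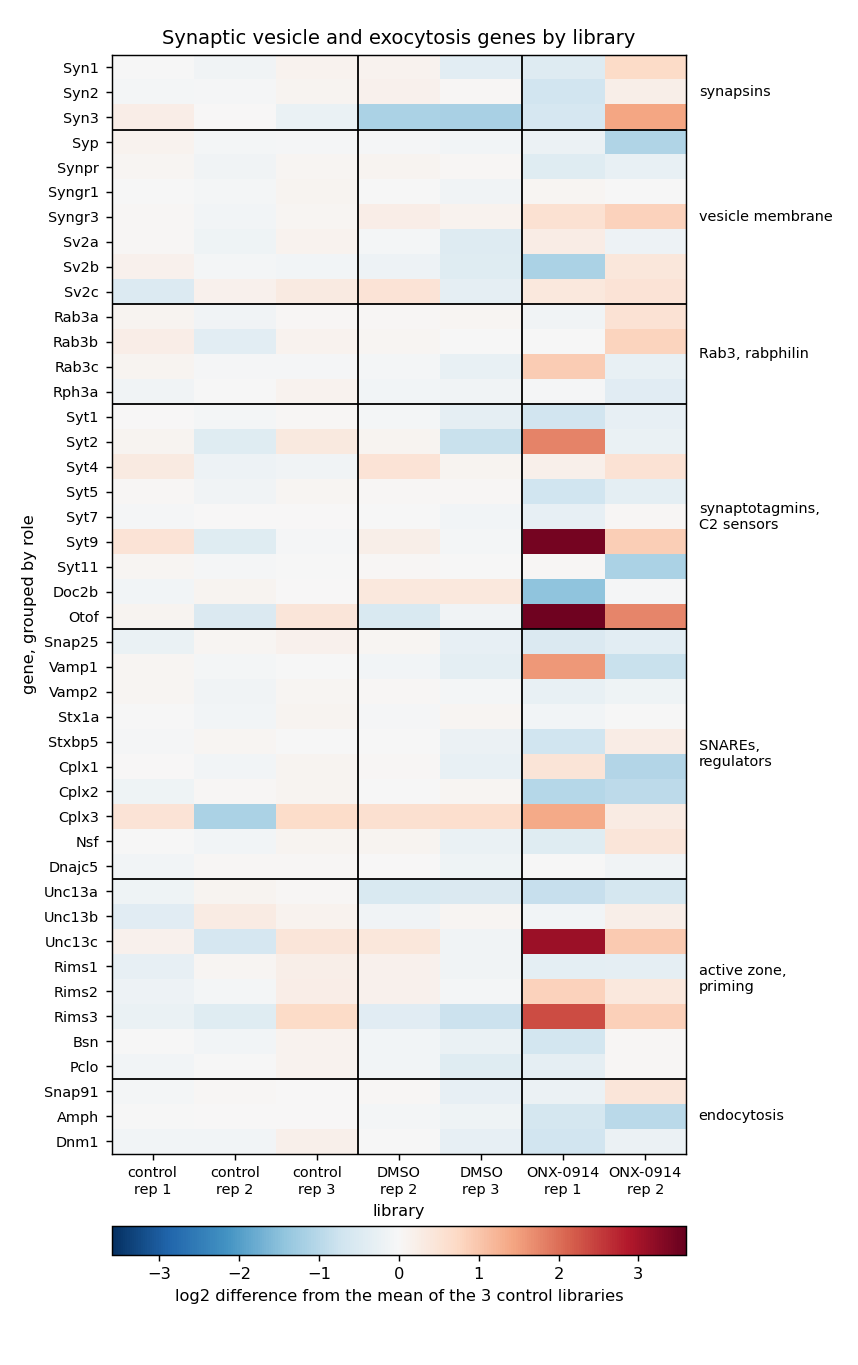
Log2 difference of each of the 44 genes from the mean of the 3 control libraries, with genes in rows by role and libraries in columns (red higher, blue lower). The ONX-0914 columns differ from control more than the DMSO columns do, and they differ from each other at Vamp1, Cplx1, Syt2, Sv2b and the synapsin genes.

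Among the synapsins, phosphoproteins that tether vesicles to each other, the ONX-0914 libraries diverged for all 3 genes. Syn1 was at 314, 289.8 and 348 CPM in control, 343 and 244 in DMSO, and 228 and 515 in ONX-0914 replicates 1 and 2. Syn2 was at 391, 393 and 439.8 CPM in control, 453 and 417 in DMSO, and 251 and 471 in ONX-0914. Replicate 1 lay below and replicate 2 above every control library in both genes, and the Log2FC were 0.23 ± 0.32 and -0.17 ± 0.26 (± SE). Syn3 had few reads, with 4.99, 4.36 and 3.58 CPM in control, 1.88 and 1.78 in DMSO, and 2.77 and 11.9 in ONX-0914. In DMSO, where it rested on 7 and 5 counts, its Log2FC against control was -1.21 ± 0.76 (FDR = 1), and ONX-0914 against DMSO gave 2.12 ± 0.71 (FDR = 0.253). Annotated exons of Syn1, Syn2 and Syn3 overlap those of Araf, Timp4 and Timp3, and whether counting used the strand is not given in the sources used here.

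Syp encodes synaptophysin, the most abundant of the 7 vesicle membrane genes per length. Its level was 1650, 1443 and 1484 CPM in control and 1493 and 1411 in DMSO. ONX-0914 replicate 1 had 1308 and replicate 2 had 719.6, so that both lay below the other 5 libraries, replicate 2 by far more. The Log2FC was -0.59 ± 0.28 (FDR = 0.291). Synpr, encoding the related synaptoporin, was at 127, 111 and 127 CPM in control, 130.1 and 124 in DMSO, and 89.1 and 100.4 in ONX-0914, with a Log2FC of -0.36 ± 0.16 (FDR = 0.281).

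Syngr3, encoding a synaptogyrin, lay the other way in both libraries. It was at 67.4, 61.9 and 68.6 CPM in control, 77.8 and 72.1 in DMSO, and 97.2 and 118 in ONX-0914. The 3 groups did not overlap. Log2FC against control was 0.71 ± 0.16 (FDR = 0.111), and against DMSO it was 0.52 ± 0.18 (FDR = 0.268). Syngr1, its relative, had 406 to 456 CPM in control and 455 and 428 in ONX-0914, with a Log2FC of 0.04 and a 95% interval from -0.34 to 0.41. Sv2a, the vesicle glycoprotein that binds the drug levetiracetam, was at 452, 396 and 485 CPM in control, 423 and 319.8 in DMSO, and 529 and 388 in ONX-0914, on opposite sides of control.

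Rph3a and Rab3a were the most abundant per length of the genes for the Rab3 GTPases and the effector rabphilin. Rph3a was at 542, 582 and 642 CPM in control, 553 and 538 in DMSO, and 572 and 445 in ONX-0914. Rab3a was at 354, 300.2 and 340.4 CPM in control, 342 and 344 in DMSO, and 306 and 472 in ONX-0914. Neither gene had both ONX-0914 libraries outside the control range. The 4 genes of this group had Log2FC between -0.21 and 0.46 in ONX-0914 against control, and the lowest FDR was 0.423.

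Among the genes for synaptotagmins and related calcium sensors, Syt11 and Syt1 were the most abundant per length. Syt11, which does not bind calcium, was at 1952, 1802 and 1853 CPM in control, 1923 and 1833 in DMSO, and 1916 and 844 in ONX-0914, so that only replicate 2 left the control range. Syt1, the main sensor for fast release in forebrain neurons, was at 1701, 1624 and 1758 CPM in control, 1601 and 1353 in DMSO, and 1052 and 1391 in ONX-0914. All 4 injected libraries lay below every control library for Syt1, with a Log2FC of -0.47 ± 0.22 (FDR = 0.291) in ONX-0914 against control. Syt5 was at 176, 158 and 180.4 CPM in control, 175 and 176 in DMSO, and 104 and 134 in ONX-0914. Its Log2FC was -0.52 ± 0.17 against control (FDR = 0.184) and -0.56 ± 0.19 against DMSO (FDR = 0.260), and DMSO did not leave the control range.

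Otof and Syt9 had the lowest control levels per length of the calcium sensors and had the largest Log2FC of the 44 genes. Both passed the filter on low counts only through the ONX-0914 libraries, where they were high. With control and DMSO libraries alone, 42 of the 44 genes passed. Their place in the test thus depended on the values that their Log2FC compares. Otof encodes otoferlin, known as the calcium sensor of inner hair cells. It had 6, 5 and 10 counts in control, 5 and 5 in DMSO, and 97 and 109 in ONX-0914, which gave 2.14, 1.36 and 2.75 CPM, 1.34 and 1.78 CPM, and 24.4 and 7.2 CPM. Both ONX-0914 libraries lay above all others, replicate 1 by more. The Log2FC was 2.83 ± 0.61 against control (FDR = 0.100) and 3.26 ± 0.74 against DMSO (FDR = 0.157). Syt9, another calcium-binding synaptotagmin, was at 3.21, 1.64 and 2.2 CPM in control, 2.68 and 2.14 in DMSO, and 25.9 and 4.43 in ONX-0914. Its Log2FC of 2.6 ± 0.77 (FDR = 0.160) was 0.94 without ONX-0914 replicate 1. For Otof the Log2FC without that library was 1.77. ONX-0914 replicate 1 was also the library with the raised thalamus, midbrain and striatum markers given above, and the part of these in Otof and Syt9 was not tested.

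**Figure D3:**
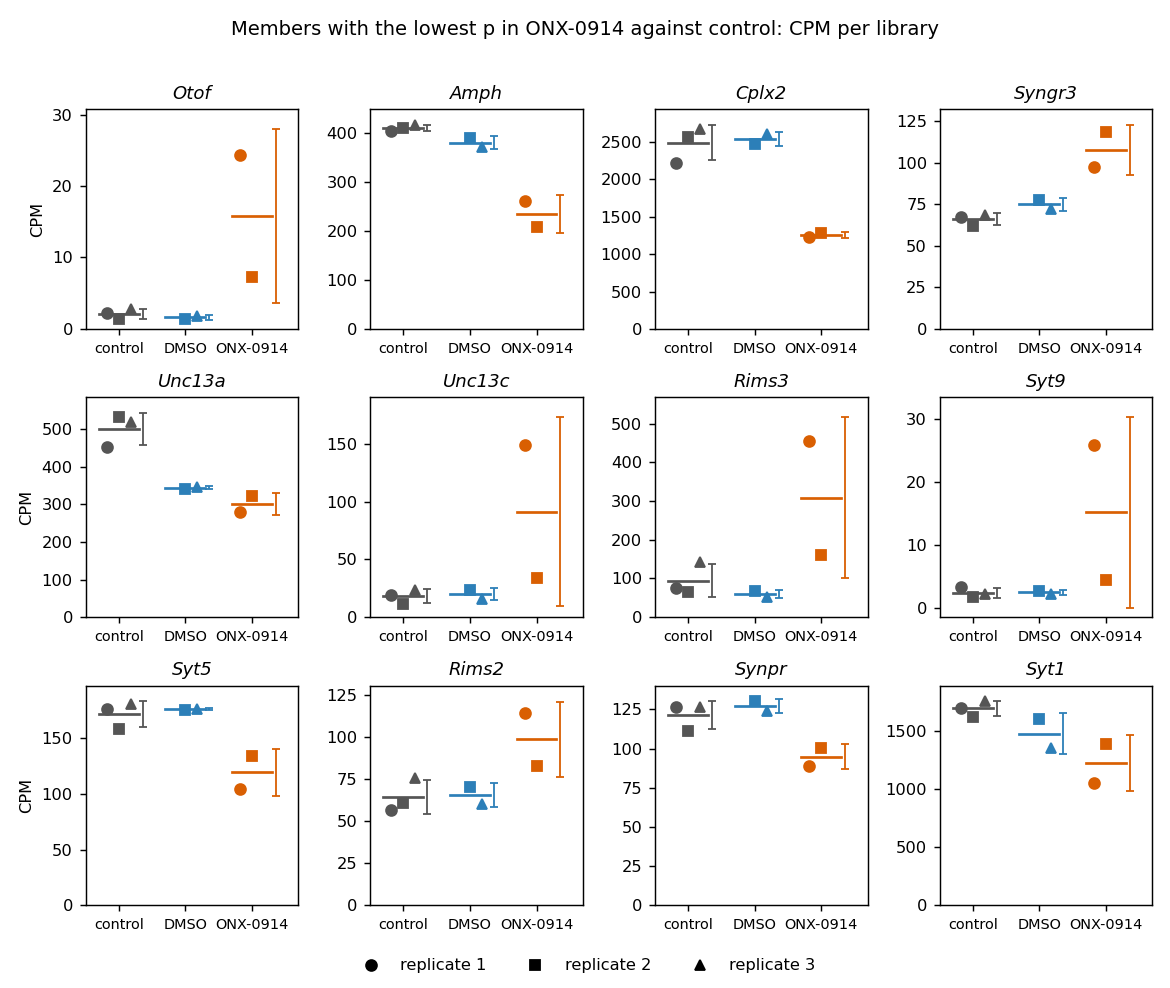
CPM per library, on linear axes, for the 12 of the 44 genes with the lowest p in ONX-0914 against control (symbols are libraries by replicate number, horizontal lines are group means, bars are ± SD of 3, 2 and 2 libraries). Amph, Cplx2, Syt5 and Synpr have both ONX-0914 points under every control and DMSO point, Unc13a has all injected points under control, and Otof, Unc13c, Rims3 and Syt9 are highest in ONX-0914 replicate 1.

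Complexins bind the assembled SNARE complex and both clamp and promote fusion. Cplx2 had the lowest Log2FC of the 44 genes. It was at 2222, 2556 and 2670 CPM in control, 2474 and 2597 in DMSO, and 1224 and 1287 in ONX-0914. The ONX-0914 libraries lay close together and below every other library, and DMSO was within the control range. Its Log2FC was -0.98 ± 0.22 against control (95% interval from -1.48 to -0.48, FDR = 0.105) and -1.01 ± 0.23 against DMSO (FDR = 0.158), whereas DMSO against control gave 0.03 ± 0.21. DESeq2 gave an adjusted p of 0.000222 for Cplx2 against control, and its FDR ranged from 1.57e-06 to 0.408 over 17 alternatives. The value hardly depended on which ONX-0914 library was used, with a Log2FC of -1.02 from replicate 1 alone and -0.96 from replicate 2 alone. Of 8 dentate gyrus markers, 7 lay below every control library and 0 above in ONX-0914 replicate 1, and 6 below and 2 above in replicate 2. Of 7 CA1 markers, 6 lay below and 1 above in replicate 1, and 2 below and 4 above in replicate 2. Of 7 CA3 markers, 6 lay below and 1 above in replicate 1, and 3 below and 1 above in replicate 2. The CA3 markers summed to 400 and 450 CPM in ONX-0914, against 503 to 507 in control. The part of these lists in the value of Cplx2 was not tested.

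Cplx1, the paralog of Cplx2, did not follow it. Cplx1 was at 1346, 1235 and 1426 CPM in control, 1375 and 1113 in DMSO, and 1822 and 639 in ONX-0914, with replicate 1 above and replicate 2 below every other library. The ratio of Cplx1 to Cplx2 per kb of exon was 1.36, 1.09 and 1.20 in control, 1.25 and 0.965 in DMSO, and 3.35 and 1.12 in ONX-0914. Cplx1 was described for this contrast after its values were seen, as were Vamp1, Syt2, Rab3c and Sv2b. The promoters of both complexin genes are shown because the paralogs separated between the libraries. They were taken from RefSeq on GRCm38.p6, another build than that of the counts, and span 250 bases before to 50 after the annotated start, 5′ to 3′ on the strand of the gene (Cplx1 at chr5:108549978-108550277, minus strand, and Cplx2 at chr13:54302306-54302605, plus strand). Capitals mark GGGCGG (the GC box) and TGACG (part of the cAMP response element) on either strand.
Cplx1: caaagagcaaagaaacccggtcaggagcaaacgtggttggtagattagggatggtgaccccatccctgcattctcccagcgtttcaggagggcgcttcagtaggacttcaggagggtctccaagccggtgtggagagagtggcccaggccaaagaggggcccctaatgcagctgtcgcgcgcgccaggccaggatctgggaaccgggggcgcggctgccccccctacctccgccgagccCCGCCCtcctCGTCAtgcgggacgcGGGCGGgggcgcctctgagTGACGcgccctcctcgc
Cplx2: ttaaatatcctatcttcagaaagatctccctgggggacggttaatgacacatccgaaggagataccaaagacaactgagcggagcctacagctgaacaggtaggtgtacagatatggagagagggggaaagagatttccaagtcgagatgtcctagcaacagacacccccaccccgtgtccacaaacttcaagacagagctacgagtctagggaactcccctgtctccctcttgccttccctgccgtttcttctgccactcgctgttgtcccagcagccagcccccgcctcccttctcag
The Cplx1 window held 2 matches to each motif and 67% G and C, and the Cplx2 window held no match and 53.3% G and C. Of the 44 genes, 33 were matched to a promoter. GGGCGG occurred in 26 of these (78.8%) and in 35.9% of all 27025 promoters in the table, and TGACG occurred in 7 (21.2%) and in 21% of all. CACGTG (the E-box) occurred in 3 (9.09%, all promoters 7.24%) and TATAAA (the TATA box) in 2 (6.06%, all promoters 14.2%). These are matches of letters and not binding sites.

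Snap25 and Vamp2 encode the main SNARE proteins of the plasma membrane and of the vesicle in forebrain neurons. Snap25 was at 1568, 1958 and 2064 CPM in control, 1926 and 1509 in DMSO, and 1301 and 1424 in ONX-0914. Vamp2 was at 1311, 1140 and 1321 CPM in control, 1302 and 1185 in DMSO, and 1048 and 1122 in ONX-0914. Both ONX-0914 libraries lay below all other libraries in both genes, but by little, and the Log2FC were -0.45 ± 0.23 (FDR = 0.327) and -0.21 ± 0.19 (FDR = 0.564). Stx1a, encoding the plasma membrane partner syntaxin-1A, had 155 to 176 CPM in control and 155 and 164 in ONX-0914, with a Log2FC of -0.05 and a 95% interval from -0.40 to 0.31. Dnajc5, encoding the SNARE chaperone CSPα, had a Log2FC of -0.08 and an interval from -0.46 to 0.30.

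Vamp1, the vesicle SNARE that prevails in brainstem and spinal cord, showed the largest contrast between the ONX-0914 libraries among genes on opposite sides of control. It was at 259.6, 235 and 240.4 CPM in control, 230.2 and 193 in DMSO, and 724 and 139 in ONX-0914. The ratio of Vamp1 to Vamp2 per kb was 0.0742, 0.0773 and 0.0682 in control, 0.259 in ONX-0914 replicate 1 and 0.0465 in replicate 2. Syt2, the fast calcium sensor of hindbrain neurons and of parvalbumin interneurons, was at 60.3, 40.9 and 70.8 CPM in control, 60.4 and 32.1 in DMSO, and 195 and 47.3 in ONX-0914. Its ratio to Syt1 per kb was 0.0275 to 0.0439 in control and 0.202 and 0.0371 in ONX-0914. Rab3c was likewise highest in replicate 1, with 558 CPM against 284 to 312 in control and 245 in replicate 2. The interneuron list summed to 1644 CPM in replicate 1 and 1149.7 in replicate 2, against 935 to 960 in control. Its 12 markers did not move together. In replicate 1, 5 lay above and 4 below every control library, and in replicate 2, 7 lay above and 5 below. The sums of the thalamus, midbrain and striatum lists were also high in replicate 1. The part of these lists in the values of Vamp1, Syt2 and Rab3c was not tested.

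The opposite order held for 8 genes, with replicate 1 below and replicate 2 above all control libraries. These were Syn1, Syn2, Syn3, Sv2b, Syt7, Stxbp5, Nsf and Snap91, and 10.8% of all genes had this order. Sv2b, a vesicle glycoprotein of many glutamatergic neurons, was at 374, 323 and 315 CPM in control, 297 and 251 in DMSO, and 153 and 443 in ONX-0914. Nsf, the ATPase that takes SNARE complexes apart, was at 625, 588 and 675 CPM in control, 675 and 528 in DMSO, and 468 and 848 in ONX-0914. The reverse order, with replicate 1 above and replicate 2 below, held for Sv2a, Rab3c, Vamp1 and Cplx1 (12.6% of all genes). The Log2FC of these 12 genes averages values of opposite sign, and none of the 12 had an unadjusted p below 0.05 in ONX-0914 against control.

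**Figure D4:**
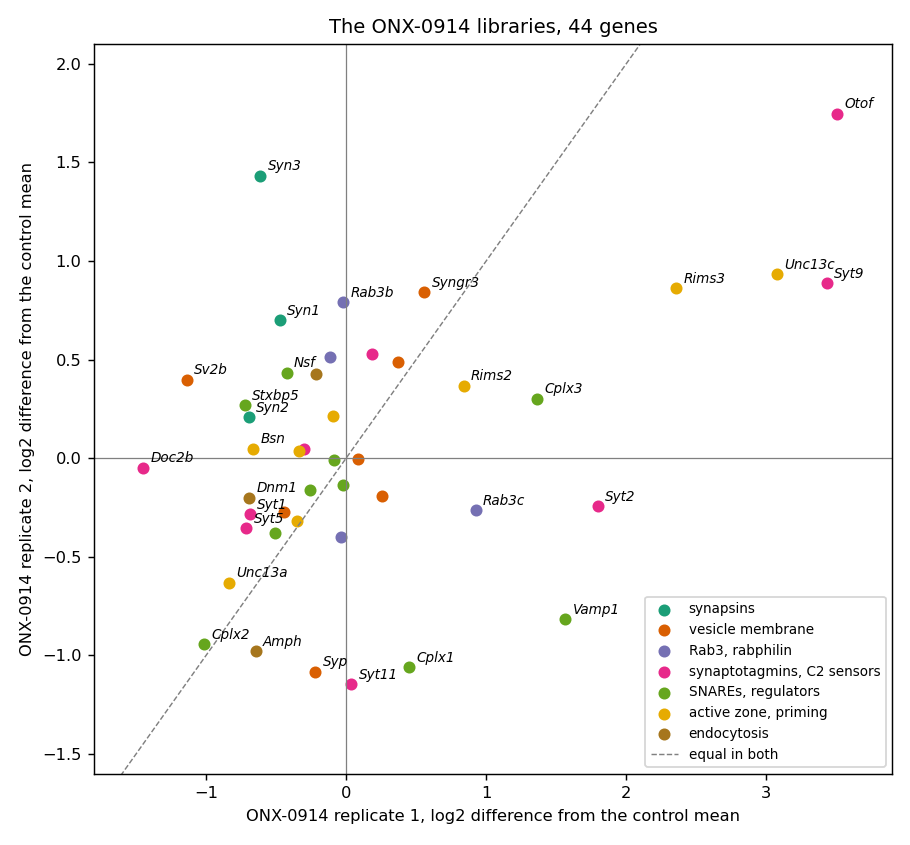
Log2 difference from the control mean in ONX-0914 replicate 1 (horizontal) and replicate 2 (vertical) for the 44 genes, coloured by role, with the dashed line where both are equal. Cplx2, Unc13a and Amph are lower in both, Otof, Syt9, Unc13c and Rims3 are higher in both and more so in replicate 1, and Vamp1, Cplx1, Syn1 and Sv2b have opposite signs.

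Of the priming proteins, Unc13a and Unc13c differed in opposite directions. Unc13a encodes Munc13-1, the main priming factor of glutamatergic terminals in the hippocampus. It was at 452, 531 and 518 CPM in control, 340.5 and 346 in DMSO, and 279.6 and 322 in ONX-0914. All 4 injected libraries lay below every control library, and the ONX-0914 libraries lay below both DMSO libraries. The Log2FC was -0.73 ± 0.17 in ONX-0914 against control (FDR = 0.119), -0.54 ± 0.17 in DMSO against control (unadjusted p = 0.0135, FDR = 1) and -0.19 ± 0.19 in ONX-0914 against DMSO (FDR = 0.622). Where the control and DMSO libraries were fitted alone, edgeR gave Unc13a an FDR of 0.00524 in DMSO against control, and it was the 1 gene called there of the 42 that passed the filter (1.11% of all genes tested). DESeq2 gave an adjusted p of 0.0215 in ONX-0914 against control. Annotated exons of Unc13a overlap those of Colgalt1.

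Unc13a, like Syt1 and Amph, was below every control library in all 4 injected libraries. The share of all genes with this pattern was not computed. The DMSO and ONX-0914 libraries were set against the same control libraries, so their positions below control are linked. Whether these genes stand out from all genes by this pattern was thus not tested. The Unc13a promoter is shown as an example (RefSeq, GRCm38.p6, chr8:71671708-71672007, minus strand, with the same window and capitals as above).
Unc13a: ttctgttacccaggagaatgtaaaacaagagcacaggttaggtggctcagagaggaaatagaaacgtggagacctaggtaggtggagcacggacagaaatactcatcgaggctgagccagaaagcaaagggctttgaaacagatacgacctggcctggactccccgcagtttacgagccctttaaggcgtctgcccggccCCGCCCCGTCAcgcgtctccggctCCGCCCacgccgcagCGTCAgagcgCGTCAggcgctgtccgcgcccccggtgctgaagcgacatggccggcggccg
It held 3 matches to TGACG and 2 to GGGCGG.

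Unc13c, encoding Munc13-3, is best known from the cerebellum. It was at 19.6, 11.5 and 24.0 CPM in control, 23.3 and 16.1 in DMSO, and 149 and 33.7 in ONX-0914, with a Log2FC of 2.30 ± 0.57 (FDR = 0.127). Both ONX-0914 libraries lay above all others, and the Log2FC was 3.02 from replicate 1 alone and 0.87 from replicate 2 alone. The ratio of Unc13c to Unc13a per kb was 0.0310 to 0.0664 in control, 0.0984 and 0.0666 in DMSO, and 0.765 and 0.150 in ONX-0914. Unc13b, the third paralog, had 20.7 to 33.8 CPM in control and 25.9 and 32.2 in ONX-0914, with a Log2FC of 0.04 and a 95% interval from -0.52 to 0.61.

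RIM proteins link Rab3 and calcium channels at the active zone. Rims3, encoding a short RIM isoform without the Rab3-binding part, was at 75.2, 65.4 and 142 CPM in control, 66.8 and 52.1 in DMSO, and 456 and 162 in ONX-0914. It lay above all other libraries in both ONX-0914 libraries, although replicate 2 exceeded control replicate 3 by little. Log2FC was 1.71 ± 0.45 against control (FDR = 0.138), 2.37 ± 0.53 against DMSO (FDR = 0.148) and -0.66 ± 0.48 in DMSO against control (FDR = 1). Without ONX-0914 replicate 1, the Log2FC against control was 0.76. Rims2 was at 56.7, 60.8 and 75.7 CPM in control, 70.6 and 60.3 in DMSO, and 115 and 82.7 in ONX-0914, with a Log2FC of 0.61 ± 0.21 (FDR = 0.199). Rims1 lay the other way, with 180.0 to 257 CPM in control and 173 and 177 in ONX-0914 (Log2FC -0.35 ± 0.20, FDR = 0.369). The ratio of Rims3 to Rims1 per kb was 0.260 to 0.511 in control and 2.43 and 0.844 in ONX-0914.

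Bsn and Pclo encode bassoon and piccolo, the giant scaffolds of the active zone. Bsn was at 406, 384 and 451 CPM in control, 387 and 349 in DMSO, and 260.2 and 427 in ONX-0914. Pclo had 172 to 203 CPM in control and 147 and 190.5 in ONX-0914. In both genes only replicate 1 lay below the control range. Their Log2FC were -0.27 and -0.14, with 95% intervals from -0.80 to 0.26 and from -0.58 to 0.30.

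**Figure D5:**
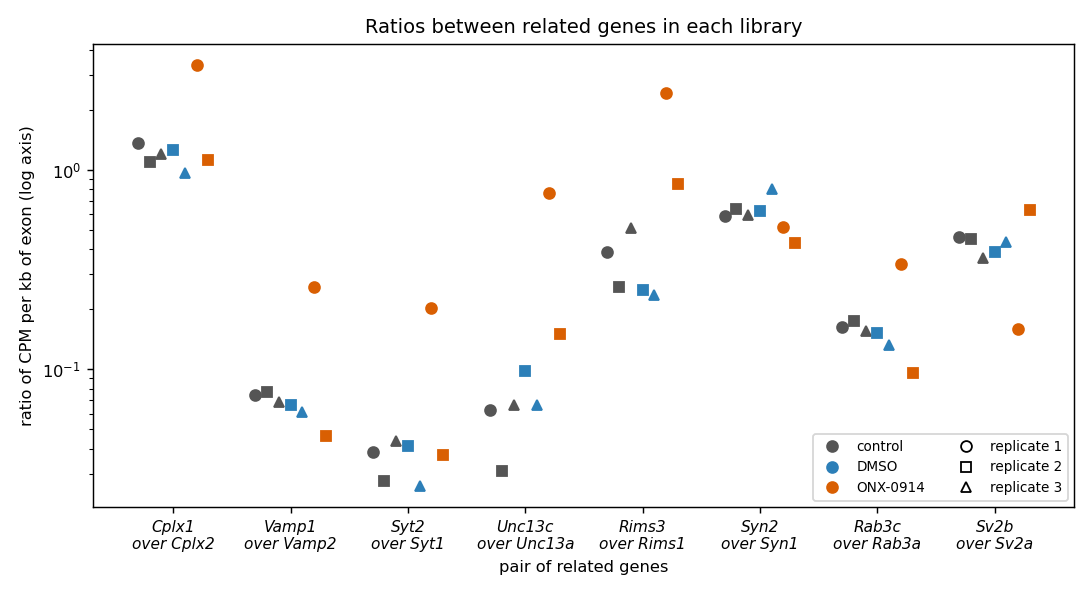
Ratio of CPM per kb of exon between related genes in each library, on a log axis (colours are groups, symbols are replicate numbers). The ratios of Cplx1 to Cplx2, Vamp1 to Vamp2 and Syt2 to Syt1 are raised in ONX-0914 replicate 1 and not in replicate 2, whereas Unc13c to Unc13a and Rims3 to Rims1 are above the control range in both. The latter follows from the single genes, as both libraries have Unc13c and Rims3 above and Unc13a and Rims1 below every control library. Syn2 to Syn1 is below the control range in both (0.518 and 0.429, control 0.585 to 0.636).

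Dnm1 and Amph were the most abundant endocytosis genes per length. Amph encodes amphiphysin, which brings dynamin to the necks of budding vesicles. It was at 404, 409.8 and 415 CPM in control, 389 and 371 in DMSO, and 262 and 208 in ONX-0914. The control libraries were within 12 CPM of each other, both DMSO libraries lay slightly below them, and both ONX-0914 libraries lay far below. The Log2FC was -0.80 ± 0.18 against control (95% interval from -1.21 to -0.40, FDR = 0.103), -0.70 ± 0.19 against DMSO (FDR = 0.199) and -0.11 ± 0.17 in DMSO against control. From single ONX-0914 libraries it was -0.65 and -0.99. DESeq2 gave Amph an adjusted p of 0.00921. Dnm1, encoding the neuronal dynamin, was at 1278, 1279 and 1540 CPM in control, 1336 and 1108 in DMSO, and 843 and 1184 in ONX-0914, with a Log2FC of -0.43 ± 0.23 (FDR = 0.353). Snap91, encoding the clathrin adaptor AP180, had a Log2FC of 0.14 ± 0.22 with libraries on opposite sides.

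The Amph promoter is shown because both ONX-0914 values of the gene, as those of Cplx2, were under all other values (RefSeq, GRCm38.p6, chr13:18948101-18948400, plus strand).
Amph: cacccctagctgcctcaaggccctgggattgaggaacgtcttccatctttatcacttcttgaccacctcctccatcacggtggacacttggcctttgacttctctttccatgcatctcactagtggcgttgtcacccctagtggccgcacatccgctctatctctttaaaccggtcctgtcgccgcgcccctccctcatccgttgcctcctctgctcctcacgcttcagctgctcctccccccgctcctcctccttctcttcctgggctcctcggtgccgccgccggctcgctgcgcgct
As in Cplx2, none of the 4 motifs was found in this window.

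A further list of 51 genes of exocytosis and the vesicle cycle outside the 44 was examined, of which 49 passed the filter. edgeR's quasi-likelihood test called 0 of them in each of the 3 comparisons. At an unadjusted p below 0.05, 15 of the 49 passed in ONX-0914 against control (30.6%, all genes 18.6%). Of these, 6 were higher (12.2%, all genes 10.6%) and 9 were lower (18.4%, all genes 8.04%). In DMSO against control 1 passed (2.04%, all genes 2.65%), and in ONX-0914 against DMSO 11 passed (22.4%, all genes 14.7%). DESeq2 called 4 in ONX-0914 against control (2.65% of all genes it tested) and 3 in ONX-0914 against DMSO (1.55%). Their median Log2FC in ONX-0914 against control was -0.22 beside 0.05 over all genes, with 14 genes above 0 (28.6%, all genes 53.8%) and 35 below (71.4%, all genes 46.2%).

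Syt6, a synaptotagmin, was at 2.14, 4.64 and 2.75 CPM in control, 3.49 and 2.5 in DMSO, and 18.4 and 12 in ONX-0914, with a Log2FC of 2.19 ± 0.38 (FDR = 0.0728). Stxbp6, encoding the syntaxin-binding protein amisyn, was at 124, 144 and 161 CPM in control and 61.2 and 83.6 in ONX-0914 (Log2FC -0.98 ± 0.21, FDR = 0.105). It is also 1 of the 8 dentate gyrus markers. Slc17a6, encoding the vesicular glutamate transporter VGLUT2 and also 1 of the 14 thalamus and midbrain markers, was at 21, 20.2 and 29.5 CPM in control and 177 and 39.9 in ONX-0914 (Log2FC 2.18 ± 0.53, FDR = 0.124). Dnm3, a dynamin gene, was at 75.2, 68.4 and 81.2 CPM in control, 68.7 and 48.2 in DMSO, and 151 and 114 in ONX-0914 (Log2FC 0.81 ± 0.21, FDR = 0.133). All 4 had both ONX-0914 libraries on the same side of every control and DMSO library. They were chosen for a low p in ONX-0914 against control, so the choice itself favours this pattern. Of all genes, 11.3% had both ONX-0914 libraries below every control and DMSO library and 11.4% had both above.

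The genes that follow had no unadjusted p below 0.05 by edgeR's test in ONX-0914 against control. Their values were likewise looked up after the patterns were seen. Sv2c, a vesicle glycoprotein of basal ganglia neurons, was at 28.5, 44.2 and 50.1 CPM in control, 56.1 and 31.8 in DMSO, and 51.6 and 56.0 in ONX-0914, so that 1 DMSO library exceeded both ONX-0914 libraries. Cplx3, the complexin of retinal ribbon synapses, was at 11.4, 3.54 and 12.7 CPM in control, 12.1 and 12.1 in DMSO, and 20.9 and 10.0 in ONX-0914. Its control values spanned more than those of most genes, and its Log2FC against control was 0.71 ± 0.50. Syt4 had 80.2 to 113 CPM in control, 98.5 to 128 in DMSO and 104 and 132 in ONX-0914 (Log2FC 0.36 ± 0.22), and Syt7, a slow calcium sensor, had 414 to 436 in control and 348 and 442 in ONX-0914 (Log2FC -0.11 ± 0.18). Stxbp5, encoding tomosyn, which restrains SNARE assembly, had 111 to 119 CPM in control and 69.2 and 138 in ONX-0914 (Log2FC -0.13 ± 0.27). Rab3b was at 11.2 to 17.1 CPM in control and 14.3 and 25.3 in ONX-0914 (Log2FC 0.46 ± 0.30).

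In the vehicle, few genes of the 44 left the control range in both libraries. Both DMSO libraries lay below all control libraries in 7 genes (15.9%), namely Syn3, Sv2b, Rab3c, Syt1, Vamp1, Unc13a and Amph, with 15% among all genes. Both lay above in 2 genes (4.55%), Syngr3 and Doc2b, with 15.7% among all genes. Doc2b, a calcium sensor linked to spontaneous release, was at 145, 166 and 158 CPM in control, 203 and 201 in DMSO, and 57.1 and 151 in ONX-0914. Its Log2FC was 0.37 ± 0.34 in DMSO against control (FDR = 1) and -0.95 ± 0.38 in ONX-0914 against DMSO (FDR = 0.306).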

How the data were processed

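RNA was extracted from hippocampus, and directional libraries were sequenced single-end by the authors. The submitters' processing notes name Trimmomatic 0.39, STAR 2.7.3a, featureCounts 2.00 and the build GRCm39. The strand setting and the annotation are not given in the sources used here. The deposited values were whole-number read counts per gene, 1 file per library, without normalization. Of the reads summarized as on a gene, on no gene or ambiguous, 89.6% to 91.4% were on genes. The summary lines for the others stayed out of library sizes and tests. Symbols and exon lengths came from GENCODE M21, which holds 52135 of the identifiers.

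The counts were tested with edgeR 4.0.16 (R 4.3.3). The filter on low counts was filterByExpr, libraries were scaled by TMM (factors 0.965 to 1.10), and glmQLFit and glmQLFTest were applied to all 7 libraries with 1 mean per group, with Benjamini-Hochberg adjustment over 13152 genes and a threshold of 0.05. The newer form of the quasi-likelihood fit was used, a choice made after both forms had been seen. Log2FC values use a prior count of 0.125. Log2 differences of single libraries use CPM after adding 0.5 counts. Since the treated groups held 2 libraries each, the spread was estimated over all 3 groups. Members of the group, lists and tests were chosen with earlier results of these data known. Full statistics are given for the 12 genes with the lowest p in ONX-0914 against control, 3 in each other comparison and 4 of the further list, and levels for the 2 most abundant genes of each role by mean CPM. Any other gene was chosen after seeing its values. Exons of 13 of the 44 genes overlap those of another gene in GENCODE M21, and their counts are less certain. Alternatives were DESeq2 1.42.0, limma voom (limma 3.58.1), other scalings and filters, compared groups alone, a replicate block, and leaving out each library. The fit was also run on simulated data with 200 changed genes. The simulation gave every group the same spread, unlike the real ONX-0914 libraries, so it does not show how the fit performs on them.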

Additional observations from a re-analysis of the deposited data

How the results depend on the processing

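In ONX-0914 against control, the number of the 44 genes called was 0 in the main analysis, 7 with DESeq2 and 5 with no filter on low counts (2.15% of all genes), and for the further list it was 4 and 4. In ONX-0914 against DMSO it was 4 and 4 for the 44 genes (1.11% of all genes with no filter) and 3 and 3 for the further list. Leaving out 1 library gave 0 to 26 of the 44 genes and 0 to 36 of the further list in ONX-0914 against control, 0 to 1 of the 44 in DMSO against control, and 0 to 21 and 0 to 34 in ONX-0914 against DMSO. The calls arose when an ONX-0914 library was left out. Without ONX-0914 replicate 1, 23 of the 44 were called against control (51.2% of all genes) and 21 against DMSO (46.0%). Without replicate 2 it was 26 (19.0%) and 21 (17%). In these fits the lone ONX-0914 library is assumed to vary like the other groups. For the further list the counts without replicates 1 and 2 were 36 and 21 against control and 34 and 18 against DMSO. In DMSO against control, 1 gene, Unc13a, was called with the compared groups alone, without ONX-0914 replicate 1 (0.955% of all genes) and without ONX-0914 replicate 2 (1.07%). The median Log2FC of the 44 genes in ONX-0914 against control was 0.078 with total counts and ranged from -0.19 (without ONX-0914 replicate 2) to 0.0025 (without ONX-0914 replicate 1) with a library left out. In DMSO against control it ranged from -0.15 to 0.013 with a library left out, the latter without DMSO replicate 3. In ONX-0914 against DMSO it was 0.22 with total counts, -0.05 without DMSO replicate 3, -0.10 without ONX-0914 replicate 2 and up to 0.15 without DMSO replicate 2. The cause was not tested. The Log2FC of the genes given with full statistics, which were chosen for a low p, kept their sign under each alternative that tested them. Other genes did not. With total counts, Syt7, Stx1a, Stxbp5, Cplx1, Dnajc5 and Pclo changed sign in ONX-0914 against control. The Log2FC of Syn1 was -0.48 from ONX-0914 replicate 1 alone and 0.69 from replicate 2 alone. Between samples with the same replicate number, deviations from the group mean had correlations of -0.0890 to 0.0679. In a group of 2 libraries these deviations mirror each other, so the correlations cannot decide whether the numbers pair the samples. With a replicate block, 0 of the 44 genes were called in each comparison, and the median Log2FC was -0.04, -0.06 and 0.07. The earlier form of the quasi-likelihood fit, added after seeing the data, called 0 of the 44 in each comparison and 18 of all genes in place of 15 in ONX-0914 against control.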
